A study of Bos taurus with 27 samples.

Results

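Transcript levels in the rumen epithelium (RE) at the end of fattening were set against those at its beginning in the same 9 Japanese Black cattle. All 9 were castrated, carried a rumen fistula and ate a high-grain ration of concentrate with rice straw at both stages. By the paper, forage was a smaller share of the ration at the late stage, and the concentrate held less crude protein. Of the 27 arrays of the series, 18 entered this comparison by the stage in their labels. They are 9 arrays of the early stage, at 14 months of age, and 9 of the late stage, at 29 months, paired by animal number. The other 9 arrays are of the middle stage, at 21 months, and their levels are given beside the others without a test. No cattle were kept off grain, so stage, age, time on the diet and the makeup of the ration changed together and cannot be told apart.

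The RE is a stratified squamous epithelium. Its basal cells divide, and their daughters move upward, make the proteins of the cornified envelope and are shed into the rumen. The living layers take up the volatile fatty acids of fermentation, exchange them for bicarbonate, export protons, and convert butyrate to ketone bodies. Under a grain ration this tissue meets more acid, which is why its transport, barrier, lipid and immune genes are described here in turn.

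A level in this text is the log2 of the processed signal of a probe minus the median of its array, so that 0 is the array median. A difference is late minus early on that log2 scale, averaged over the 9 cattle and given with its standard error. Median signal ran from 35.2 to 48.6 at the early stage, from 32.2 to 47.0 at the late stage and from 8.22 to 28.7 at the middle stage. The middle-stage arrays were thus dimmer, and a level set against their medians may not compare with those of the other stages. How far this moved the middle-stage levels given below was not tested. Between 68.9 and 78.2% of probes were well above background on an early array and between 68.5 and 73.8% on a late one. The 18 arrays came from 4 slides and 3 scan days, and 0 slides held both stages, so slide and stage cannot be told apart. Animals 1 to 8 shared a slide within each stage, and animal 9 was on another slide at both.

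Of 15008 probes, 10163 were kept because every array of at least 1 stage (9 arrays) showed them well above background. Among these, 4036 differed between the stages in limma's test with an adjusted *P* below 0.05, which is 39.7% of the kept probes. At the late stage 2682 were higher (26.4%) and 1354 were lower (13.3%). A fold change of at least 2 was reached by 351 of them (3.45%), of which 142 were upregulated (1.4%) and 209 downregulated (2.06%). The 9 late levels did not overlap the 9 early levels at 911 probes (8.96%).

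The split between higher and lower depends on the scaling. The median kept probe differed by 0.10 under the array median and by -0.02 under the 75th percentile of each array. With that percentile 1635 probes were higher and 2094 lower, with quantile normalization 2015 and 1694, with cyclic loess normalization 1844 and 1753, and with the log2 values of the authors 1664 and 2066. Each list of genes below is therefore read beside the median of 0.10 over all kept probes, and its calls beside the 39.7% called among them. Among the 9621 probes seen well above background on each of the 18 arrays, 2581 were higher and 1163 lower, and at 2-fold 107 were higher and 120 lower. A further 342 probes were kept through the early stage alone, of which 191 were lower, 89 of them 2-fold, and 1 was higher. Through the late stage alone 200 were kept, of which 100 were higher, 35 of them 2-fold. Being well above background in 1 stage alone favors a higher level in that stage, so genes on such probes are pointed out where they appear. With the slide as a random effect (block) 1185 of the 4036 calls remained, and normexp background correction left 384.

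**Figure D1:**
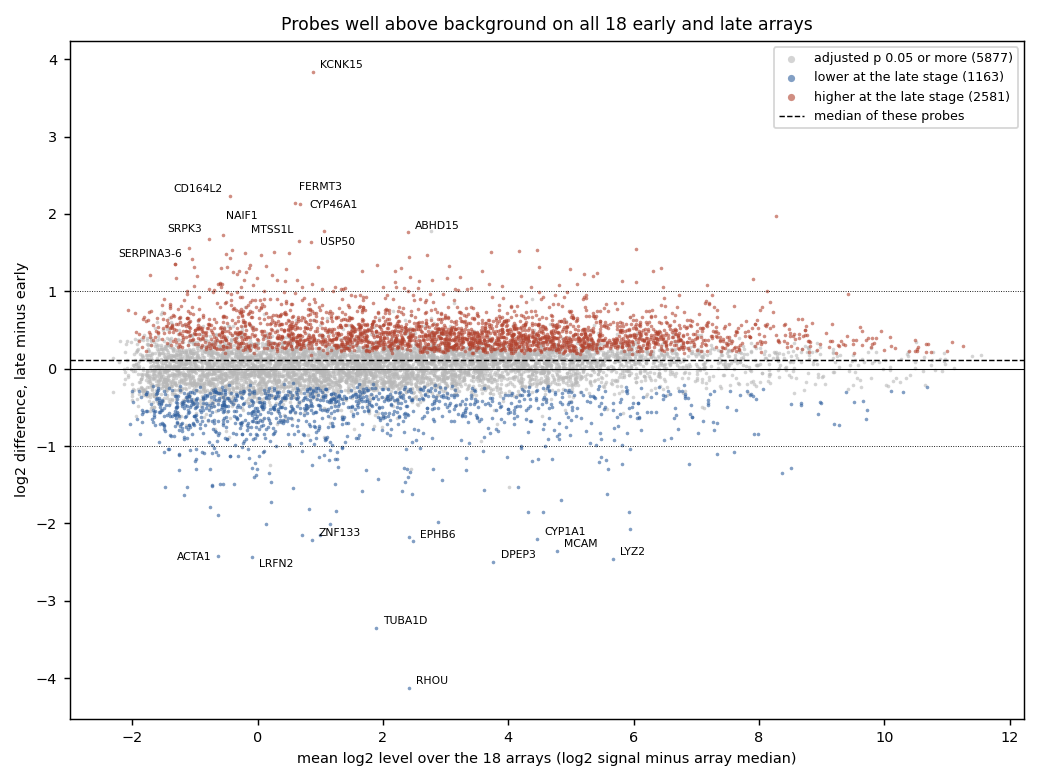
Difference in log2, late minus early, on the vertical axis against the mean log2 level over the 18 arrays on the horizontal axis, for the 9621 probes that every early and late array showed well above background, with red for 2581 higher, blue for 1163 lower and grey for the rest. Dotted lines mark 2-fold, the dashed line marks the median of 0.11, and KCNK15 at 3.84 and RHOU at -4.12 stand farthest from the others.

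KCNK15, a potassium channel of the 2-pore family, had the largest rise. Its lowest, median and highest levels were -1.34, -1.02 and -0.78 at the early stage and 2.43, 2.61 and 3.33 at the late stage. Every late level was above every early one. The difference was 3.84 ± 0.12 (n = 9 cattle, adjusted *P* = 4.65e-08), or 14.3-fold. At the middle stage the median was -0.07.

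FERMT3, which encodes the integrin activator kindlin-3 of blood cells, went from -0.74, -0.47 and 0.11 at the early stage to 1.46, 1.61 and 2.05 at the late stage, again without overlap. It rose by 2.15 ± 0.11 (adjusted *P* = 1.38e-06). CYP46A1, the cholesterol 24-hydroxylase, rose by 2.13 ± 0.22 (adjusted *P* = 0.000116), with medians of -0.51 and 1.79. CD164L2, named for its likeness to the sialomucin CD164, rose by 2.23 ± 0.29 (adjusted *P* = 0.000434). Its late levels were widely spread, from -0.81 to 1.82, but stayed above the highest early level of -1.37.

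ABHD15, a member of the alpha/beta hydrolase family, rose by 1.76 ± 0.07 (adjusted *P* = 4.97e-07). Its early levels lay between 1.39 and 1.73 and its late levels between 3.10 and 3.51, so the stages were far apart beside the spread among cattle. NAIF1, a nuclear apoptosis-inducing factor, rose by 1.73, the kinase SRPK3 by 1.67, the actin-binding MTSS1L by 1.66, the ubiquitin peptidase homolog USP50 by 1.64 and the serpin SERPINA3-6 by 1.56. None of these 5 overlapped between the stages. SERPINA3-6 belongs to a family of near-identical bovine genes, and its probe may also bind their transcripts.

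RHOU, a small GTPase that acts on the actin cytoskeleton, fell the most. Its lowest, median and highest levels were 4.30, 4.49 and 4.63 at the early stage and -0.10, 0.32 and 0.72 at the late stage. The early levels spanned less than the late ones, and no late level came near them. The difference was -4.12 ± 0.10 (adjusted *P* = 1.13e-08), so the early signal was 17.4 times the late one. On the dimmer arrays of the middle stage the 9 levels lay between 5.10 and 6.69.

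TUBA1D, an alpha tubulin, was much less even among the cattle. It had levels of 2.13, 3.86 and 4.42 at the early stage and of -1.59, 0.44 and 2.01 at the late stage, and it fell by 3.35 on the log2 scale (adjusted *P* = 0.000265). ACTA1, the skeletal muscle actin, fell by 2.42 (adjusted *P* = 1.42e-06), from a median of 0.41 to one of -1.86. Tubulins and actins are families with shared sequence, so these probes may bind other members as well. Of 40 kept tubulin and actin genes 5 rose and 9 fell, with a median of -0.02.

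DPEP3, a membrane dipeptidase, fell by 2.49 (adjusted *P* = 1.86e-06), LRFN2, a synaptic adhesion protein, by 2.43, and EPHB6, an ephrin receptor without kinase activity, by 2.23. The zinc finger gene ZNF133 fell by 2.21 (adjusted *P* = 6.51e-08), with early levels of 1.77 to 2.22 and late levels of -0.50 to 0.16. The stages did not overlap at any of these 4. CYP1A1, a cytochrome P450 induced through the aryl hydrocarbon receptor, fell in all 9 cattle by 2.20 ± 0.36 (adjusted *P* = 0.00151), but its early range of 3.75 to 7.18 overlapped its late range of 2.14 to 5.52.

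LYZ2, a lysozyme of the ruminant family that digests bacteria, had levels of 5.90, 6.84 and 7.48 at the early stage and of 3.85, 4.38 and 5.29 at the late stage. It fell by 2.46 ± 0.21 (adjusted *P* = 3.29e-05). Lysozyme genes are close copies of each other, and their probes did not move together. One LYZ1 probe fell by 2.15 (adjusted *P* = 0.00158), while the other, with early and late medians of 9.60 and 9.62, differed by 0.05 ± 0.15 (adjusted *P* = 0.818).

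Some probes were well above background on every early array and on no late array, so that only a lower limit of the change can be given. It sets the mean early level against the mean over the late arrays of the lowest level still well above background, or of the level of the probe itself where that was higher. TUBAL3, an alpha tubulin-like gene, was at least 6.92-fold lower at the late stage (adjusted *P* = 1.38e-06). HMGB1, a chromatin protein, was at least 3.76-fold lower and PRRX1, a mesenchymal homeobox factor, at least 3.11-fold lower, both on probes designed from single expressed sequence tags. CAMKV, a kinase-like vesicle protein, was at least 2.29-fold lower and AP1G2, an adaptor subunit, at least 2.27-fold lower. No probe showed the reverse.

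**Figure D2:**
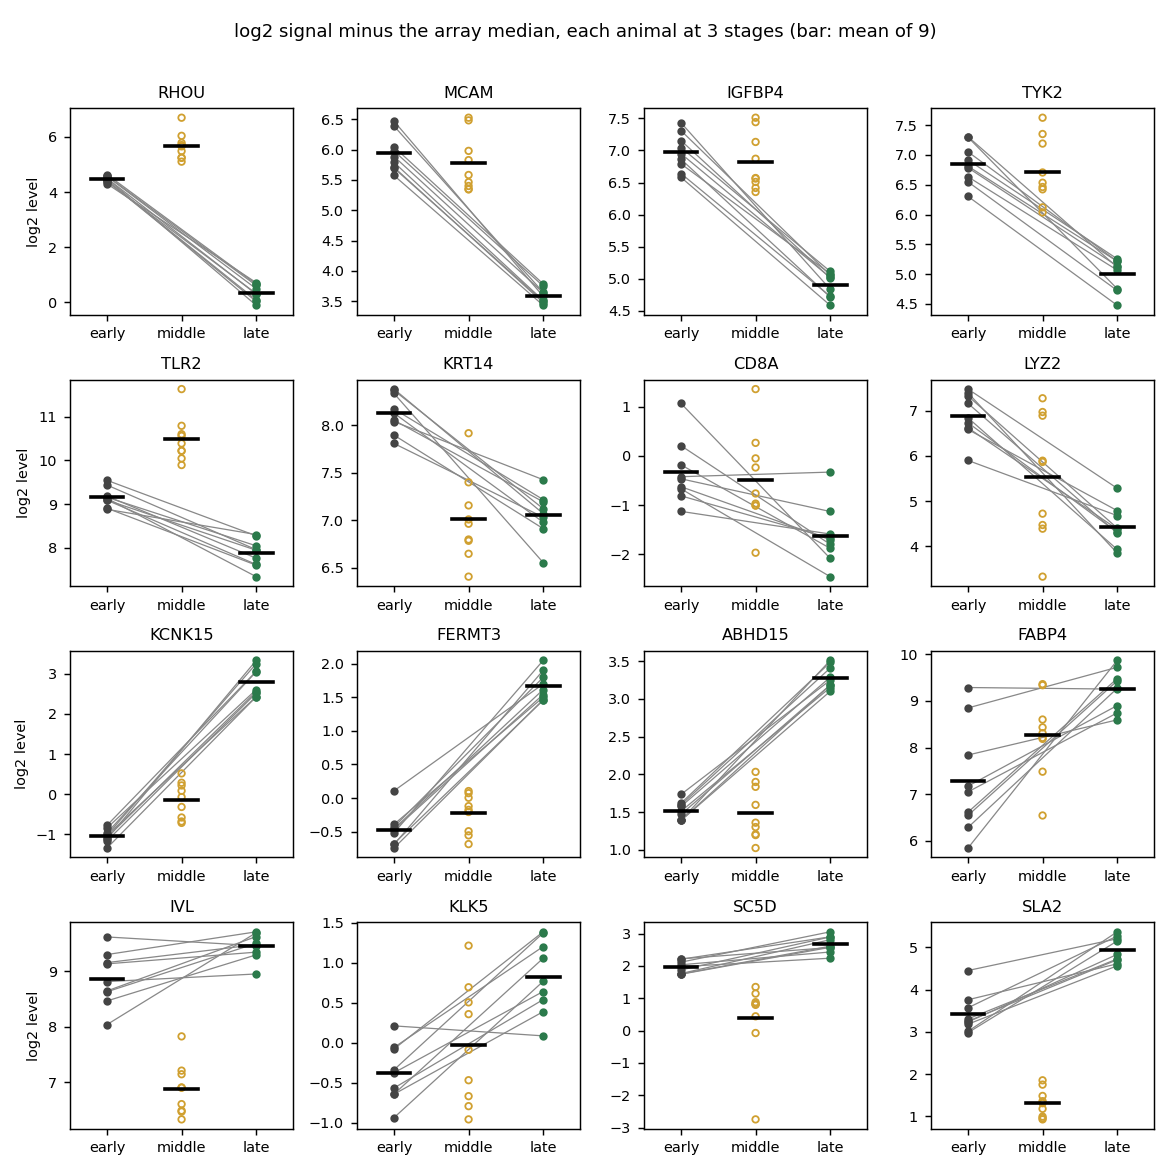
Levels of 16 genes in each of the 9 cattle, as log2 signal minus the array median on the vertical axis, at the early, middle and late stages, with lines joining the early and late levels of an animal, open circles for the middle stage and bars for the mean of 9. RHOU, MCAM, IGFBP4, TYK2, TLR2, KRT14 and LYZ2 fell without overlap, KCNK15, FERMT3, ABHD15, SC5D and SLA2 rose without overlap, and CD8A, FABP4, IVL and KLK5 overlapped.

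The probes of several of these genes are unusual in sequence, and the parts that carry it are shown because the difference between the stages moved with the bases of the probe. The first 2 probes hold runs of the dinucleotide GT, in capitals where 3 or more units follow each other, and both genes fell. TYK2 is a Janus kinase of interferon signaling and MCAM a cell adhesion protein of endothelium and smooth muscle. Each line gives 30 of the 60 bases, 5′ to 3′ as printed on the array.
TYK2: ccatcactttGTGTGTGTGTGTGTGTGTGT
MCAM: ctgcgtgtatGTGTGTGTGcGTGTGTGTat

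IGFBP4, a binding protein of insulin-like growth factors, fell by 2.07 (adjusted *P* = 7e-07) from an early median of 6.95 to a late one of 5.01. MCAM fell by 2.35 (adjusted *P* = 4.01e-07) from 5.88 to 3.58. For TYK2 the medians were 6.81 and 5.12, and it fell by 1.85 (adjusted *P* = 3.73e-06). None of the 3 overlapped between the stages, and all 3 had middle-stage medians between the other 2 medians, at 6.57 for IGFBP4, 5.58 for MCAM and 6.53 for TYK2.

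The next lines give probes with runs of 3 or more G or C, in capitals. RHOU and TUBA1D fell. KCNK15, SRPK3, the respiratory chain gene UQCRB and the translation elongation factor gene EEF1B2 rose, the last 2 on probes from expressed sequence tags.
RHOU: cgtGGGCCCGGGGcgccGGGGGGccGGGGG
TUBA1D: ggaGGGagaGGGagaagaggagcgaGGGGG
KCNK15: ctcgCCCCCCgccagCCCCGGGGctgcGGG
SRPK3: agtaccgCCCCCCaggaggtcttgacGGGG
UQCRB: ctaaCCCtaaCCCCttcctGGGGctttatt
EEF1B2: CCCCaaatttctttggaacattaccacGGG

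Over the 9621 probes seen on all 18 arrays, the difference between the stages rose with the number of C minus the number of G in the probe, with r = 0.41 across probes, which share their arrays and are not independent. With percent GC the r was -0.08. In each of animals 1 to 8 the r with C minus G lay between 0.26 and 0.44, and in animal 9 it was 0.12. Where G outnumbered C by 10 or more (493 probes), 5.48% were higher and 44.0% were lower at the late stage, with a median difference of -0.27. Where C outnumbered G by 10 or more (546 probes), 53.1% were higher and 3.30% lower, with a median of 0.31. RHOU had C minus G of -17, TUBA1D of -22, MCAM of -13 and IGFBP4 of -16, but TYK2 of 1 and KCNK15 of 4.

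Short motifs showed the same ordering. CTCCC on the printed strand, in 7.61% of the probes, had 357 probes higher and 44 lower, and GGGAG, its reverse complement, in 5.53%, had 79 higher and 141 lower. CCCC, in 16.2%, had 641 higher and 118 lower, and GGGG, in 12.03%, had 215 and 248. GTGTGTGT was in 0.582% of the probes, of which 8 were higher and 18 lower, 7 of them 2-fold lower, and ACACACAC was in 0.104%, with 3 higher and 0 lower. These motifs were searched after the values had been seen, and probes can hold several of them.

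For this reason each comparison is also given after a linear term for the numbers of A, C and G in the probe had been taken out of every array. After it, 2272 kept probes were higher and 1030 lower, and 2524 of these 3302 calls were shared with the uncorrected 4036, that is 76.4% of the first and 62.5% of the second. Among these genes, RHOU fell by 3.27, TUBA1D by 2.61, MCAM by 2.12, IGFBP4 by 1.65 and TYK2 by 1.92, and KCNK15 rose by 4.02, all still with an adjusted *P* below 0.05. Of the motifs, GGGAG then had 132 probes higher and 60 lower, CTCCC 233 and 59, GGGG 291 and 117, and CCCC 425 and 153. GTGTGTGT had 14 and 15, and ACACACAC 3 and 0, beside 2184 and 865 over all 9621 probes. What made the differences move with probe composition was not tested. Calls that the genes described below lost under the correction are given beside them.

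**Figure D3:**
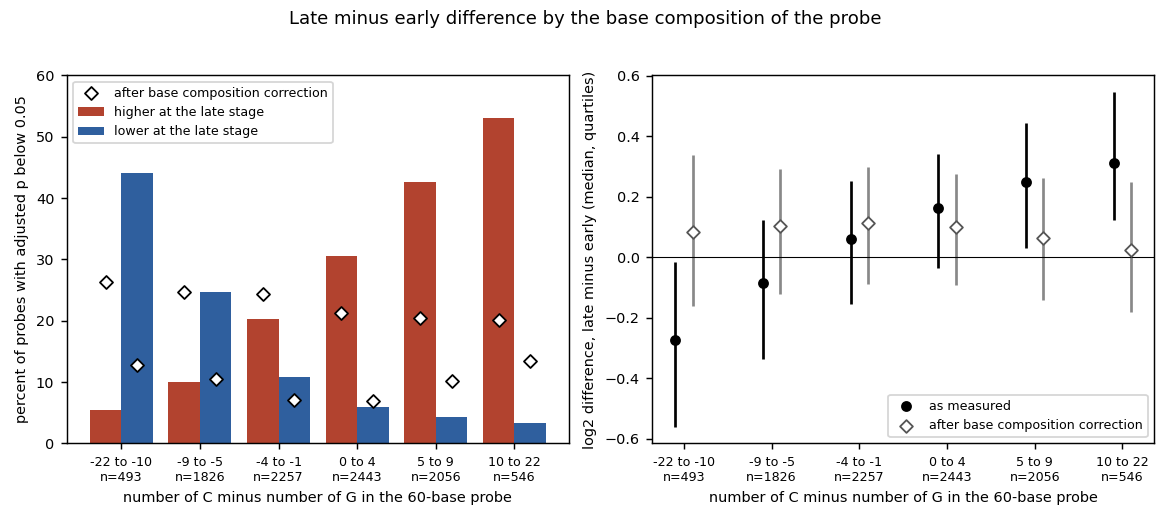
Percent of probes higher (red) or lower (blue) at the late stage, left, and median difference in log2 with quartiles, right, by the number of C minus the number of G in the 60-base probe, for 9621 probes. The share lower fell from 44.0 to 3.30% and the share higher rose from 5.48 to 53.1% from the first group to the last, and diamonds, after the correction, lay at 20.2 to 26.4% higher and 6.96 to 13.4% lower.

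Animal 9, whose arrays were on other slides than those of animals 1 to 8 (the early one on a slide with middle-stage arrays), gives a view of the same contrast apart from the other slides. Of 127 probes that rose at least 2-fold in the other 8 cattle, 101 (79.5%) were also higher in animal 9, with a median difference of 0.56 there against 1.21 in the others. Of 127 that fell at least 2-fold, 117 (92.1%) were also lower in animal 9, with a median of -0.98 against -1.28. Over all probes seen on the 18 arrays, 75.7% of the 5778 that were higher in the other 8 cattle were higher in animal 9, and 51.7% of the 3840 that were lower were lower. Over these probes animal 9 itself had a median difference of 0.20. Most of them were thus higher in it, and the shares for rises and falls do not start from an even base. Animal 9 is a single animal, so no test was made.

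Of 36 genes of epidermal differentiation on the array 25 were kept, 10 rose and 1 fell at the late stage, and 14 were not called. The share called, 44.0%, was near the 39.7% of all kept probes, and their median of 0.26 lay above the 0.10 of all kept probes. IVL, the envelope precursor involucrin, had levels of 8.04, 8.81 and 9.61 at the early stage and of 8.95, 9.48 and 9.71 at the late stage, and rose by 0.58 ± 0.17 (adjusted *P* = 0.0248). The ranges overlapped. CSTB, the protease inhibitor cystatin B, rose by 0.59 (adjusted *P* = 0.00239), and TGM5, a transglutaminase that cross-links the envelope, by 0.82 (adjusted *P* = 0.000255), each in all 9 cattle.

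The proteases that loosen shed cells, and their inhibitor, also differed. KLK5, a kallikrein protease, rose by 1.21 ± 0.18 (adjusted *P* = 0.000811), from levels of -0.94, -0.37 and 0.21 to levels of 0.09, 0.77 and 1.39. It rose in 8 cattle and not in animal 9. SPINK5, the inhibitor of kallikreins, rose by 0.84 ± 0.20 (adjusted *P* = 0.0105). KLK8 was the single member that fell, by 0.47 (adjusted *P* = 0.0451), and it lost its call under the composition correction (adjusted *P* = 0.136) and without any 1 of animals 1 to 7 or animal 9 (adjusted *P* = 0.0510 to 0.0965).

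SERPINB5, the serpin maspin, rose by 0.52 (adjusted *P* = 0.00397) without overlap, and ZNF750, a transcription factor of differentiation, by 0.67 (adjusted *P* = 0.00615), which was 0.38 (adjusted *P* = 0.0754) after the correction. SERPINB7 rose by 1.49 (adjusted *P* = 0.0107) but was kept through the late stage alone. Of the whole list 12 rose and 0 fell after the correction, 8 rose and 1 fell under the 75th percentile, and 2 rose and 0 fell once slides were a random effect.

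Of 14 kept keratin genes on the list 1 rose and 4 fell, with a median of -0.05 and 35.7% called, near the 39.7% of all kept probes. Over all 21 kept keratin genes, the 7 outside the list included, 2 rose and 6 fell, with a median of -0.04. The largest falls among these 21 were those of KRT86 and KRT85, keratins best known from hair, which are outside the list. KRT86 had levels of 4.44, 4.82 and 6.08 at the early stage and of 3.33, 3.84 and 4.43 at the late stage, and fell by 1.17 (adjusted *P* = 0.000601). KRT85 fell by 1.11 (adjusted *P* = 9.51e-05), from 1.38, 1.60 and 1.97 to 0.26, 0.37 and 1.01, and neither gene overlapped between the stages. KRT14, the basal-layer keratin, had levels of 7.81, 8.13 and 8.38 at the early stage and of 6.55, 7.07 and 7.43 at the late stage. The stages did not overlap, and it fell by 1.07 (adjusted *P* = 0.000139), or by 0.74 after the correction. Its partner KRT5 fell by 0.45 (adjusted *P* = 0.0288). KRT17 fell by 0.31 (adjusted *P* = 0.018) and KRT6A rose by 0.35 (adjusted *P* = 0.00551), and both lost their calls under the correction (adjusted *P* = 0.743 and 0.302). After the correction 0 keratin genes of the list rose and 3 fell, with a median of -0.01, and with slides as a random effect 0 rose and 1 fell. Keratin genes share sequence, so their probes may bind more than 1 of them.

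At the cell junctions, CDH1, the epithelial cadherin, fell by 0.64 (adjusted *P* = 0.00135), with early levels of 6.24 to 6.67 and late levels of 5.50 to 6.15. EPCAM, an epithelial adhesion protein, rose by 0.55 (adjusted *P* = 0.0117). Of 10 kept desmosome genes 2 rose and 1 fell, and of 24 kept tight and adherens junction genes 2 rose and 3 fell. These shares of calls, 30.0 and 20.8%, lay below the 39.7% of all kept probes.

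**Figure D4:**
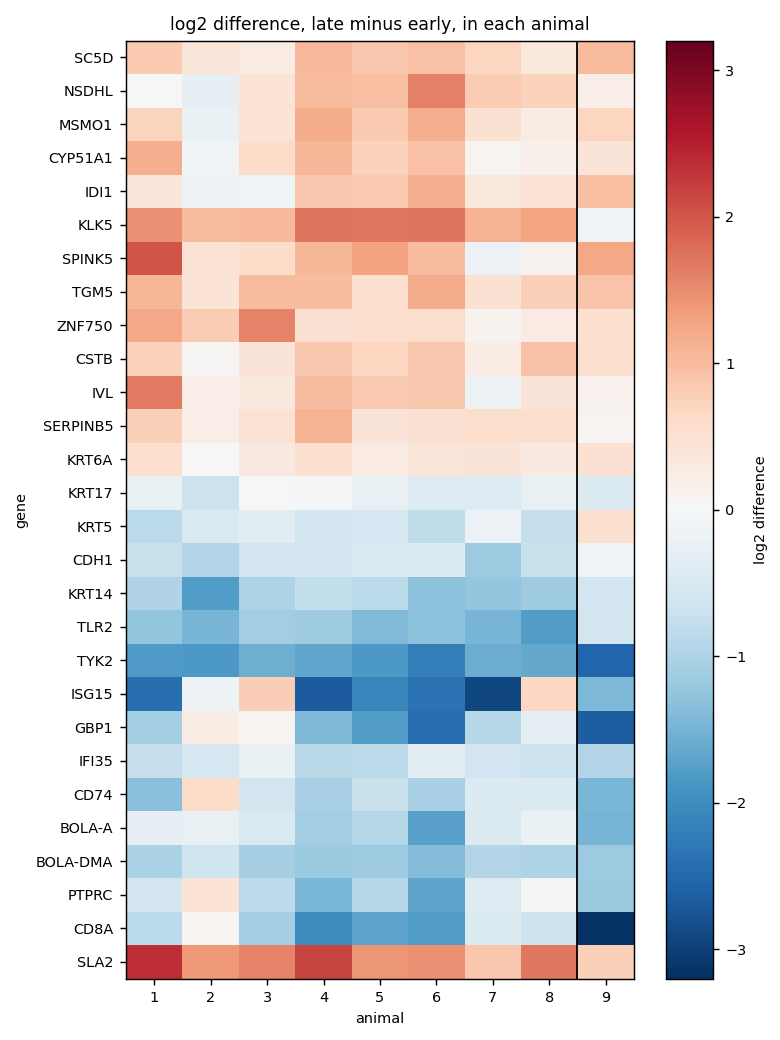
Difference in log2, late minus early, of 28 genes (rows) in each of the 9 cattle (columns), from blue for lower to red for higher at the late stage, with a line before animal 9. TYK2, KRT14, TLR2 and BOLA-DMA were lower and SLA2, SC5D and TGM5 higher in every animal, while ISG15 was higher in animals 3 and 8 and lower in the others.

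Among the transporters of fatty acid anions, protons and bicarbonate, 16 of 31 genes were kept, 6 rose and 2 fell, with a median of 0.18. Under the 75th percentile 4 rose and 2 fell, and with slides as a random effect 1 rose and 2 fell. SLC26A3, an anion exchanger of chloride and bicarbonate, had levels of 5.35, 6.76 and 7.46 at the early stage and of 6.97, 7.73 and 7.98 at the late stage. It rose by 0.87 ± 0.25 (adjusted *P* = 0.0227) in 7 of 9 cattle, and this call was lost without animal 4, 5 or 6 (adjusted *P* = 0.0531, 0.0502 and 0.0529). SLC9A3, a sodium and proton exchanger, rose by 0.79 (adjusted *P* = 0.00258). SLC4A11 and SLC4A9, of the bicarbonate transporter family, rose by 0.69 (adjusted *P* = 7.87e-05) and 0.65 (adjusted *P* = 0.00419).

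Among the monocarboxylate carriers of lactate and ketone bodies, the largest change was that of SLC16A8, which is not on the list just counted. Its levels were -0.24, 0.03 and 0.28 at the early stage and -1.84, -1.54 and -0.95 at the late stage, and it fell by 1.52 (adjusted *P* = 6.69e-06) without overlap. SLC16A3 fell by 0.64 (adjusted *P* = 0.00554), and SLC16A1 had medians of 6.53 and 6.65 and a difference of 0.05 ± 0.16 (adjusted *P* = 0.837). SLCO2A1, a prostaglandin carrier, fell by 0.94 (adjusted *P* = 0.000487). Over all 199 kept SLC and SLCO genes, 55 rose and 30 fell, with a median of 0.10, the same as over all kept probes. Under the 75th percentile 34 of them rose and 45 fell, and with slides as a random effect 7 rose and 14 fell.

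Ion pumps had 10 rises and 2 falls among 28 kept genes, with a median of 0.23. ATP6V1B1, a subunit of the proton-pumping V-ATPase, rose by 0.63 (adjusted *P* = 0.00202), from 5.33, 5.77 and 5.94 to 6.02, 6.33 and 6.70, without overlap. Its fellow subunit ATP6V1C2 rose by 0.99 (adjusted *P* = 0.00481) and ATP1B1, the beta subunit of the sodium pump, by 0.57 (adjusted *P* = 0.0239). ATP6V1G1 fell by 0.84 (adjusted *P* = 0.000883) on a probe from an expressed sequence tag. Under the 75th percentile 5 pump genes rose and 3 fell, and with slides as a random effect 2 rose and 2 fell.

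Of 19 kept genes on the list of carbonic anhydrases, the urea transporter and aquaporins 2 rose and 5 fell, with a median of -0.12. AQP8, a water channel that also carries ammonia, had levels of 3.81, 4.43 and 4.86 at the early stage and of 2.38, 2.65 and 3.42 at the late stage, and fell by 1.57 (adjusted *P* = 1.3e-05). AQP6, an aquaporin with anion permeability, fell by 1.79 (adjusted *P* = 4.62e-06), also without overlap. AQP3, a water and glycerol channel, fell by 0.60 (adjusted *P* = 0.00896). CA2, the cytosolic carbonic anhydrase, fell by 0.89 (adjusted *P* = 0.0472), in 6 of 9 cattle, and lost its call under the correction (adjusted *P* = 0.222). AQP1, a water channel of endothelium, rose by 0.70 (adjusted *P* = 0.015), and CA11, a relative without the enzyme activity, by 0.52 (adjusted *P* = 0.00304).

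Ion channels were split, with 14 rises and 13 falls among 56 kept genes. Beside KCNK15, SCN4A, a sodium channel of skeletal muscle, rose by 1.50 (adjusted *P* = 9.16e-06). KCNQ3, a potassium channel subunit, fell by 1.82 (adjusted *P* = 2.04e-06) from early levels of 1.39 to 1.89 to late levels of -0.41 to 0.31. CLCN2, a chloride channel, fell by 1.38 (adjusted *P* = 0.000468). The stages overlapped at none of these 3 genes.

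Of all metabolic lists, the one for cholesterol synthesis and uptake had the median farthest above that of all kept probes. All 25 genes on the array were kept, 10 rose and 0 fell, and the median was 0.39. The share called, 40.0%, was near the 39.7% of all kept probes. SC5D, the sterol C5 desaturase, had levels of 1.74, 1.98 and 2.22 at the early stage and of 2.24, 2.61 and 3.06 at the late stage, and rose by 0.71 ± 0.10 (adjusted *P* = 0.000821). It was the only member whose stages did not overlap. MSMO1, the sterol C4 methyl oxidase, rose by 0.62 (adjusted *P* = 0.0083), and CYP51A1, the lanosterol demethylase, by 0.56 (adjusted *P* = 0.0134).

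NSDHL, another enzyme of sterol demethylation, rose by 0.62 (adjusted *P* = 0.0236), which became 0.44 (adjusted *P* = 0.0868) under the correction. SREBF1, a sterol-regulated transcription factor, rose by 0.48 (adjusted *P* = 0.00293). SQLE, the squalene epoxidase, did not pass the test, with a difference of 0.06 ± 0.12 (adjusted *P* = 0.736). After the correction 11 genes of the list rose and 0 fell, under the 75th percentile 7 rose and 3 fell, and with slides as a random effect 1 rose and 0 fell.

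Among 33 kept genes of fatty acid oxidation 7 rose and 1 fell, with a median of 0.18. The share called, 24.2%, lay below the 39.7% of all kept probes. HADHA, the alpha subunit of the mitochondrial trifunctional protein, rose by 0.47 (adjusted *P* = 0.00113) in all 9 cattle. PPARA, a nuclear receptor that drives these genes, fell by 0.72, and its call was lost under the correction (adjusted *P* = 0.0523). Ketogenesis and short-chain acyl activation had 5 rises and 1 fall among 16 kept genes, with a median of 0.04. FABP4, a fatty acid binding protein best known from adipocytes, rose by 1.97 ± 0.39 (adjusted *P* = 0.00364). It varied from 5.85 to 9.29 among the early biopsies and from 8.59 to 9.87 among the late ones, and was higher late in 8 of 9 cattle.

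The respiratory chain held both directions. Complex I had 13 rises and 4 falls among 32 kept subunits, with a median of 0.14, and complexes II to V had 12 and 5 among 37, with a median of 0.13. With 75th percentile scaling the counts for complexes II to V turned to 4 rises and 10 falls, and those for complex I were 11 and 7. NDUFA6, an accessory subunit of complex I, fell by 1.27 (adjusted *P* = 1.11e-05), from 1.79, 1.93 and 2.04 to 0.27, 0.64 and 1.02. Its probe was from an expressed sequence tag. UQCRQ, a subunit of complex III, fell by 0.80 (adjusted *P* = 0.000122), while UQCRB, of the same complex, rose by 1.42 (adjusted *P* = 0.000137) from a median of -1.75 to one of -0.39. DHTKD1, a 2-oxoacid dehydrogenase of lysine breakdown, fell by 1.99 (adjusted *P* = 3.7e-06).

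Of 37 vitamin A genes on the array 22 were kept, 6 rose and 0 fell, with a median of 0.22. The share called, 27.3%, lay below the 39.7% of all kept probes, and as a share of rises it was near their 26.4%. BCO2, which cleaves carotenoids, had levels of 4.68, 5.03 and 5.52 at the early stage and of 5.39, 5.78 and 6.45 at the late stage, and rose by 0.74 (adjusted *P* = 0.00654) in every animal. RDH10, which oxidizes retinol, rose by 0.53 (adjusted *P* = 0.00193) and RARA, a retinoic acid receptor, by 0.50 (adjusted *P* = 0.00607). RXRA, the partner receptor, rose by 0.63 (adjusted *P* = 0.0309) and lost its call under the correction (adjusted *P* = 0.29). Scaled to the 75th percentile, 4 genes of the list rose and 0 fell, and with slides as a random effect 2 rose and 0 fell.

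**Figure D5:**
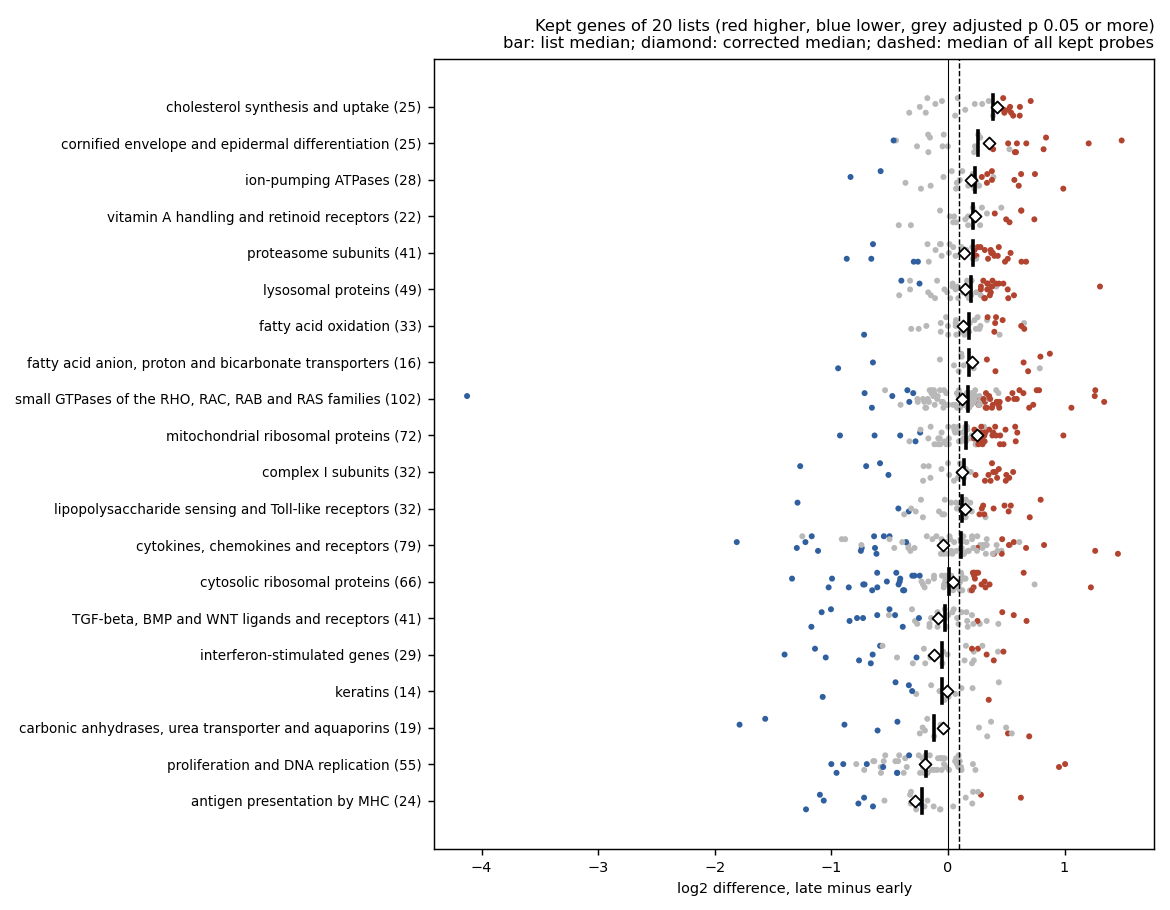
Difference in log2, late minus early, of each kept gene (points, with the number of genes after the name) in 20 lists, red where higher, blue where lower and grey where the adjusted *P* was 0.05 or more, with a bar for the list median, a diamond for the median after the composition correction and a dashed line for the median of 0.10 over all kept probes. The medians run from 0.39 for cholesterol synthesis and uptake to -0.22 for antigen presentation.

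Among genes of protein turnover, 20 of 49 kept lysosomal genes rose and 2 fell, with a median of 0.20. LAMP3, a lysosomal membrane protein of mature dendritic cells, rose by 1.30 (adjusted *P* = 0.00278), and CTSF, a cathepsin on a probe kept through the early stage alone, fell by 0.40, a call lost under the correction (adjusted *P* = 0.923) and without animal 1, 2, 3, 4, 6, 7 or 8 (adjusted *P* = 0.0527 to 0.0823). Of 41 kept proteasome genes 19 rose and 5 fell, with a median of 0.21, and PSMA3, a subunit of the core particle, fell by 0.87. After the correction 13 lysosomal genes rose and 1 fell, and 14 proteasome genes rose and 1 fell. With scaling to the 75th percentile the counts were 9 and 5 for the lysosome and 11 and 7 for the proteasome.

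Ribosomal protein genes of the mitochondrial and the cytosolic ribosome were counted apart. Of 72 kept mitochondrial ribosomal protein genes 28 rose and 5 fell, with a median of 0.15, and after the correction 37 rose and 3 fell with a median of 0.25. MRPL12 rose by 0.99 (adjusted *P* = 3.8e-05) on a probe from an expressed sequence tag, and MRPL38 fell by 0.93 (adjusted *P* = 2.9e-05). Of 66 kept cytosolic ribosomal protein genes 15 rose and 19 fell, with a median of 0.01. RPL34 fell by 1.34 (adjusted *P* = 0.000621), from a mean level of 3.10 to one of 1.76. RPL9 rose by 1.23 (adjusted *P* = 1.4e-05), also on a probe from an expressed sequence tag. The mean levels of this RPL9 probe, -0.94 early and 0.28 late, lay near the array median, and what it binds was not tested. Under the 75th percentile 14 and 8 mitochondrial ribosomal genes rose and fell, and 4 and 25 cytosolic ones. The difference between the lists was not tested.

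Genes of T and B cells held both directions. Of 21 on the array 15 were kept, 2 rose and 5 fell, with a median of 0.09, but 4 of the 15 were kept through 1 stage alone, and of the 11 seen on all 18 arrays 2 rose and 2 fell. CD8A, the coreceptor of cytotoxic T cells, had levels of -1.13, -0.47 and 1.07 at the early stage and of -2.46, -1.71 and -0.33 at the late stage. The ranges overlapped, and it fell by 1.29 ± 0.29 (adjusted *P* = 0.00733) in 8 of 9 cattle. PTPRC, the pan-leukocyte protein CD45, fell by 0.74 (adjusted *P* = 0.0216) and lost its call under the correction (adjusted *P* = 0.0977).

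ZAP70, a kinase of the T-cell receptor, fell by 1.44 (adjusted *P* = 0.00467), CD5 by 1.16 (adjusted *P* = 0.000986) and CD3E, of the receptor complex, by 1.07 (adjusted *P* = 0.00366), all kept through the early stage alone. SLA2, an adaptor that dampens T-cell receptor signals, rose by 1.52 (adjusted *P* = 0.00014), from levels of 2.98, 3.25 and 4.45 to levels of 4.56, 4.83 and 5.37. In a biopsy of mixed cells, a change in the number of T cells and one in these transcripts per cell cannot be told apart. The mean level of the 15 genes ran from 0.06 to 1.29 at the early stage and from -0.20 to 0.59 at the late stage, so the stages overlapped. Its medians were 0.29 and 0.22.

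Antigen presentation had the lowest median of the function lists, at -0.22, with 2 rises and 7 falls among 24 kept genes. Of the 21 seen on all 18 arrays 2 rose and 5 fell. BOLA-DMA, which loads peptides on class II molecules, had levels of 3.87, 4.06 and 4.48 at the early stage and of 2.60, 3.06 and 3.45 at the late stage, and fell by 1.06 ± 0.08 (adjusted *P* = 1.98e-05). It did not overlap. CD74, the invariant chain of class II, fell by 0.72 (adjusted *P* = 0.015). B2M, the light chain of class I, fell by 1.22 (adjusted *P* = 7.93e-05) on a probe from an expressed sequence tag kept through the early stage alone. This probe was dim, with medians of -1.28 and -2.57, and was well above background on 6 late arrays.

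BOLA-A, a class I heavy chain, fell by 0.77 (adjusted *P* = 0.00781) without overlap, but by 0.42 (adjusted *P* = 0.0813) after the correction, and PSMB8, of the immunoproteasome, fell by 0.64 (adjusted *P* = 0.0252), a call also lost there (adjusted *P* = 0.0674). RFX5, a transcription factor of class II genes, rose by 0.63 (adjusted *P* = 0.00701). The BOLA genes are polymorphic and alike, so a probe may bind other members or miss an allele. After the correction the list again had 2 rises and 7 falls, under the 75th percentile 1 and 8, and with slides as a random effect 0 and 2.

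Interferon-stimulated genes had 5 rises and 8 falls among 29 kept. ISG15, a ubiquitin-like protein, fell by 1.40 ± 0.43 (adjusted *P* = 0.0301), but was higher at the late stage in animals 3 and 8, and lost its call under the correction (adjusted *P* = 0.0818) and without animal 1, 4, 5, 6, 7 or 9 (adjusted *P* = 0.0522 to 0.0717). GBP1, a guanylate binding protein, fell by 1.14 (adjusted *P* = 0.0176) in 7 of 9 cattle and lost its call under the correction (adjusted *P* = 0.0539). CXCL10, a chemokine induced by interferon, rose by 1.26 (adjusted *P* = 0.0106) in 8 of 9 cattle.

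TLR2, the receptor for bacterial lipoproteins, had levels of 8.88, 9.13 and 9.54 at the early stage and of 7.33, 7.94 and 8.30 at the late stage. It fell by 1.29 ± 0.11 (adjusted *P* = 3.8e-05) without overlap, and by 0.95 after the correction. At the middle stage its levels ran from 9.89 to 11.64, above all early and late ones. The middle-stage arrays were dimmer, with a median signal of 16.7 at the middle of their range against 39.3 early. Whether the transcript itself was higher then was not tested. The list of lipopolysaccharide sensing and Toll-like receptors, TLR2 included, had 10 rises and 3 falls among 32 kept genes. NFKB2, a subunit of the factor they activate, rose by 0.80 (adjusted *P* = 0.00021), from 1.53, 1.81 and 2.33 to 2.38, 2.62 and 2.91.

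Of 79 kept cytokine, chemokine and receptor genes 10 rose and 13 fell, and of the 72 seen on all 18 arrays 8 rose and 10 fell. CCL5, a chemokine for T cells, fell by 1.17 (adjusted *P* = 0.0265) in 8 of 9 cattle. CCL22, a chemokine of dendritic cells, fell by 1.81 (adjusted *P* = 0.00687) and was kept through the early stage alone. IL17RA, a receptor chain of interleukin 17, rose by 1.46 (adjusted *P* = 0.000227) and was kept through the late stage alone. LGALS3, the epithelial galectin, rose by 1.06 (adjusted *P* = 0.00199), from 4.60, 6.11 and 6.50 to 6.52, 7.02 and 7.41, without overlap.

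Of 55 kept genes of proliferation and DNA replication 2 rose and 8 fell, with a median of -0.19 and 18.2% called. CDC20, an activator of the anaphase ligase, fell by 1.00 (adjusted *P* = 0.0308) in 7 of 9 cattle, on a probe kept through the early stage alone, and lost its call without animal 2, 4, 5 or 8 (adjusted *P* = 0.0609 to 0.0670). MCM3, a subunit of the replicative helicase, rose by 0.95 (adjusted *P* = 0.000439), from levels of 1.20, 1.60 and 1.90 to levels of 1.94, 2.50 and 3.06. After the correction 2 rose and 1 fell while the median stayed at -0.20, and the call of CDC20 was lost (adjusted *P* = 0.0671). CDKN2B, an inhibitor of the cell cycle, rose by 0.84 (adjusted *P* = 0.000721), and MDM2, the ligase of p53, fell by 1.03 (adjusted *P* = 0.000402), each without overlap.

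Ligands and receptors of TGF-beta, BMP and WNT had 4 rises and 11 falls among 41 kept genes. WNT4, a ligand expressed in epithelia, had levels of 0.70, 0.92 and 1.13 at the early stage and of -0.22, 0.17 and 0.54 at the late stage, and fell by 0.73 (adjusted *P* = 0.000498). WNT8B fell by 1.08 (adjusted *P* = 3.09e-05), also without overlap, and LRP5, a WNT coreceptor, by 0.84 (adjusted *P* = 0.00021). BMP4 fell by 1.00 (adjusted *P* = 0.000178) and by 0.42 after the correction, its probe having C minus G of -19. AXIN2, a target gene of WNT, fell by 0.61 (adjusted *P* = 0.00398) and lost its call there (adjusted *P* = 0.361).

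Of 102 kept small GTPase genes, RHOU included, 30 rose and 7 fell, with a median of 0.17 and 36.3% called, near the 39.7% of all kept probes, and after the correction 22 rose and 4 fell. RAB19, a GTPase of vesicle traffic, rose by 1.34 (adjusted *P* = 0.00213), from 0.37, 1.18 and 2.19 to 2.11, 2.65 and 3.08. Under the 75th percentile 20 rose and 17 fell. Antioxidant and NRF2 target genes had 12 rises and 3 falls among 53 kept, with 28.3% called, below the 39.7% of all kept probes. GSTM3, a glutathione transferase, had the largest called rise of the list. It rose by 1.22 (adjusted *P* = 0.000497) in all 9 cattle, from 3.96, 4.57 and 5.18 to 4.83, 5.76 and 7.00. For this list the 75th percentile gave 8 rises and 7 falls.

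The tissue label was checked against marker genes. Of 16 markers of stratified squamous epithelium 15 were kept, and their mean level ran from 5.48 to 5.86 at the early stage and from 5.56 to 5.82 at the late stage. Because the extraction text of the labels names neutrophils and liver, those markers were checked as well. Only 5 of 17 neutrophil and 5 of 20 hepatocyte markers were kept, MPO, ELANE and ALB were not, and 0 of the kept ones differed. Of 15 smooth muscle markers 10 were kept, and DES, MYH11 and CNN1 were not. TPM1, on a probe from an expressed sequence tag seen on 2 late arrays, was the 1 that differed, and the mean level of the 10 ran from 1.44 to 2.60 early and from 1.22 to 1.81 late.

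Other cells showed small counts. Of 15 kept endothelial markers 1 rose and 3 fell, TIE1 by 1.55 (adjusted *P* = 0.000485) on a probe kept through the early stage alone, and of 17 fibroblast and matrix markers 2 rose and 2 fell. None of the 11 kept markers of macrophages and dendritic cells differed, with a median of 0.00. Of 17 skeletal muscle and adipocyte markers 5 were kept, 3 rose and 1 fell, FABP4 and ACTA1 among them, and ADIPOQ, PLIN1 and MYH2 were not kept. Whether shifts in cell makeup had a part in the differences above was not tested.

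Among 23 genes with several kept probes, 56 in all, 1 gene, MTMR9, had calls in both directions, at -0.50 and 0.52. IFITM3, an antiviral membrane protein, had a difference of -0.07 (adjusted *P* = 0.791) on its RefSeq probe and fell by 1.69 on a probe from an expressed sequence tag kept through the early stage alone.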

How the data were processed

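Cyanine 3 cRNA from the total RNA of each RE biopsy was run on a one-color bovine array of 60-base probes. The authors deposited scanner output of Agilent Feature Extraction, whose processed signal is an intensity on a linear scale with background already removed. The version is 11.0.1.1 in the file headers and 9.5 in the labels. The deposited flags for well above background, saturated and outlier are 0 or 1, and no spot was saturated on the 18 arrays used. A second deposited file holds log2 values of the authors, with column medians from -3.09 to -2.61, which differed from log2 processed signal minus the 75th percentile of the array by at most 0.0806 in the median. It was used as an alternative.

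Each array's median over 15110 non-control spots was subtracted from log2 signal, outlier spots were left out and repeated spots were averaged to 15008 probes. Late was compared with early in limma 3.58.1 (R 4.3.3, statmod 1.5.0) with a term for each animal, after a test on simulated data, and Benjamini-Hochberg adjustment covered all probes. A call is an adjusted *P* below 0.05, at 2-fold where stated. Because the same cattle were biopsied at both stages, animals pair the arrays. Deviations of the 2 arrays of an animal correlated at 0.141 on average (-0.036 to 0.341, above 0.1 in 6 of 9 animals), and those of different animals at -0.018. Array numbers limit the precision, and the replicates are separate animals.

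Identifiers of 11194 probes matched the RefSeq gene table (ARS-UCD2.0), 617 symbols were updated and 746 probes had none. The array design gives no genome build here, so no positions are printed. For a gene with several kept probes the brightest stood for it in lists. Named genes are the 10 largest rises and falls seen on all 18 arrays and in the same direction in all 9 cattle, the 5 largest one-stage limits, and the largest rise and fall of each of 42 function lists, 104 probes in all. Other members were named after their values were seen, and some members and sequences are not reported here. A further 10 lists hold markers of cell types. Members and lists were chosen with earlier results of these data known, and counts of lists carry no test.

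Alternatives were 75th percentile, quantile and cyclic loess scaling, normexp background correction with an offset of 50, the authors' table, outlier spots kept, no animal block, the methods' t-test, the slide as a random block, 3 stages in 1 fit, other filters, and each animal left out. The composition correction and 3 stages with the slide as a random block were added after seeing the data.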

Additional observations from a re-analysis of the deposited data

Results flagged for a closer look

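Among the named genes, a sample stood apart from the other 8 of its stage in 14 of 208 groups by Dixon's ratio of the gap to the range, which was above its 95% critical value for 9 samples. Chance gives about 1 in 20 groups, and the causes were not tested.

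Animal 9 was involved in 6 of the 14. At the early stage it was highest for FERMT3 (ratio 0.586, level 0.11 against -0.39 in the next animal), for USP50 (0.582, level 0.61 against 0.12) and for SCN2B, a sodium channel subunit on a probe kept through the early stage alone (0.577, level -0.97 against -1.48). At the late stage it was highest for ATP6V1G1 (0.545, level 5.37 against 5.11) and for ZNF628, a zinc finger gene (0.513, level 2.85 against 2.19), and lowest for EGR1, an immediate early factor on a probe kept through the late stage alone (0.494, level -2.69 against -1.75).

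Animal 1 stood apart in 5 groups. At the early stage it was lowest for SERPINB7 (0.509, level -2.88 against -1.62), ATP6V1G1 (0.601, level 5.05 against 5.74) and LGALS3 (0.581, level 4.60 against 5.70), and highest for DHTKD1 (0.514, level 4.26 against 3.94). At the late stage it was lowest for HSPB1, a small heat shock protein (0.702, level -0.55 against 0.93), the one of these 14 with the highest ratio. The rise of HSPB1 by 0.66 (adjusted *P* = 0.0317), on a probe from an expressed sequence tag, lost its call under the composition correction (adjusted *P* = 0.315).

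Animal 6 was highest at the early stage for AQP1 (0.516, level 6.86 against 5.82) and S100A3, a calcium-binding protein (0.509, level 1.57 against 1.19). Animal 5 was highest at the late stage for SCN2B (0.506, level -1.01 against -2.88).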

How the results depend on the processing

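The 4036 calls became 386 under normexp background correction, 1185 with the slide as a random block, 2461 with 3 stages in 1 limma fit, and 210 with both of these. The 351 calls at 2-fold became 55 under normexp, 144 with 3 stages and the slide, 227 over only the probes seen on all 18 arrays, and 633 without the filter on dim probes. Leaving out 1 animal gave 3224 to 4065 calls and 327 to 381 at 2-fold. Other scalings, the authors' table, outlier spots kept, the methods' t-test and the composition correction stayed within 1.5 times of the main counts. Without the animal block, that is without the pairing, 4183 probes were called and 344 at 2-fold, and KLK8, DSG2, AQP1, GCLC, STAT4 and ABCC4 lost their calls. GCLC, kept through the early stage alone, and STAT4 also lost theirs under the composition correction (adjusted *P* = 0.0509 and 0.0527).

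Of the 104 named probes, 68 kept their call and direction with the slide as a random block, 42 under normexp, 36 with 3 stages and the slide, and 85 under the composition correction, where CTSF reversed to 0.026 (adjusted *P* = 0.923). KCNK15, FERMT3, RHOU, TUBA1D, DPEP3, MCAM and DHTKD1 kept theirs under every alternative run. With the slide as a random block KRT6A, KLK8, SERPINB7, SLC26A3, ATP6V1C2, AQP1, PPARA, RFX5, ISG15, CCL22, LAMP3, CTSF, CDC20 and RAB19 were among the 36 that lost their calls. The causes were not tested. Signal over background limits the dimmest probes.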

Other observations

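Several further groups of genes held both rises and falls, with a share called from 28.6% for ABC transporters to 53.8% for the tricarboxylic acid cycle, beside 39.7% of all kept probes. Glycolysis had 5 rises and 3 falls among 22 kept genes, the tricarboxylic acid cycle 9 and 5 among 26, heat shock and unfolded protein response genes 9 and 6 among 31, immediate early genes 5 and 4 among 26, and ABC transporters 3 and 3 among 21. Zinc finger genes had 51 rises and 26 falls among 169, translation factors 19 and 8 among 56, and HNRNP and SR splicing factors 14 and 10 among 52. SNRPF, a core protein of splicing particles on that list, fell by 1.15 (adjusted *P* = 6.69e-06), from early levels of 4.27 to 4.80 to late levels of 3.22 to 3.58. The call of PDK3, a kinase that turns down pyruvate dehydrogenase and rose by 0.66, was lost under the composition correction (adjusted *P* = 0.0658).

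Signaling lists were small. JAK, STAT and SOCS genes had 6 rises and 2 falls among 19 kept, TYK2 being the one that fell the most. S100 proteins and galectins had 4 and 3 among 20, MYC, p53 and cell-cycle inhibitors 8 and 5 among 29, the EGF receptor family and ligands 3 and 2 among 13, and the insulin-like growth factor axis 1 and 2 among 12. HBEGF, an EGF receptor ligand, fell by 1.15 (adjusted *P* = 0.00129) on a probe kept through the early stage alone. Clock genes had 3 rises and 2 falls among 15. Their repressor BHLHE41 rose by 0.74 (adjusted *P* = 0.00819) and PER2 fell by 0.92 (adjusted *P* = 0.0139), the latter on a probe kept through the early stage alone. Of 4 kept red blood cell markers 2 rose and 0 fell.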
